A study of Rattus norvegicus with 12 samples.

Results

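The NRF2 antioxidant genes described here are 9 genes: the transcription factor gene Nfe2l2, which encodes NRF2, and Nqo1, Hmox1, Gclc, Gclm, Slc7a11, Gsr, Txnrd1 and Srxn1. They were chosen by gene symbol from the literature on the NRF2 pathway, with earlier results from these data known, and make up 9 of the 18469 genes in the deposited tables. Their RNA was measured by sequencing in neonatal rat ventricular myocytes (NRVMs), a primary heart muscle cell culture, from Sprague-Dawley rats. All 12 cultures were kept in DMEM with insulin, transferrin, selenium and antibiotics, and each was transfected with a control siRNA (siNeg) or with an siRNA against Slc25a26 (siSlc25a26), the gene of the mitochondrial carrier for S-adenosylmethionine. The siRNA sequences and how many were used are not given in the labels. The alpha-1 adrenergic agonist phenylephrine (PE), which drives hypertrophic growth of these cells, was added to part of the cultures 12 h after transfection and left for 36 h. The 4 groups are siNeg, siNeg PE, siSlc25a26 and siSlc25a26 PE, each with 3 libraries from independent biological replicates.

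In unstressed cells the adaptor KEAP1 binds NRF2 and presents it to a CUL3 ubiquitin ligase, so that NRF2 is degraded. Oxidants and electrophiles modify cysteines of KEAP1, and NRF2 then accumulates, pairs with a small MAF protein and binds antioxidant response elements in the control regions of genes for glutathione synthesis, the thioredoxin system, quinone reduction and haem breakdown. Because this control acts on the NRF2 protein, the RNA of its target genes is often used as its readout, and in the heart the pathway is known for its part in oxidative and hypertrophic stress.

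Total counts per library ranged from 24770972 to 28709049. Libraries of a group differed by more than counting noise, with a chi-square per gene of 5.34 to 14.9 for 10 of the 12 pairs within groups, 20.5 for siNeg.PE 1 and 3 and 20.7 for siSlc25a26.PE 1 and 3. Whether any library is an outlier was not tested. Levels of a gene across libraries are given in CPM, which divides counts by library totals adjusted with edgeR's TMM factors, and levels between genes in the deposited FPKM, which scale fragments by library size and by gene length. Differences are log2 fold changes with their standard error (SE) from edgeR's quasi-likelihood test, and p-values are adjusted by the Benjamini-Hochberg method over all genes tested in that comparison. A gene was called, and is said to have risen or fallen, when its fold change was above 1.5 and its adjusted p under 0.05. Each comparison sets 3 libraries against 3, for which an exact permutation test of a single value cannot go below p = 0.1. The comparisons share libraries, so their values are given side by side and are not independent of each other. Since the counts come from whole cultures, fewer cells of a type and less RNA per cell cannot be told apart.

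Slc25a26 itself was measured first, as a check of the labels. Its level was 33.2, 31.6 and 29.3 CPM in the siNeg libraries, 113, 106 and 86.2 CPM in siNeg PE, 15.8, 14.9 and 14.7 CPM in siSlc25a26, and 102, 106 and 98.8 CPM in siSlc25a26 PE. All 3 siSlc25a26 libraries lay below all 3 siNeg libraries, while the PE libraries of both siRNAs lay together, at the highest levels. Without PE, Slc25a26 was 2.11-fold lower with siSlc25a26 (log2 fold change -1.08, SE 0.0798; edgeR adjusted p = 1.08e-05). Under PE the log2 fold change between the siRNAs was -0.01 (SE 0.101; edgeR adjusted p = 0.969), so the knockdown that the label states was not seen in the RNA of that group. The value turned to 0.08 without siNeg.PE 1, 0.02 without siNeg.PE 2, 0.00 without siSlc25a26.PE 1 and 0.03 without siSlc25a26.PE 3. Groups under PE are therefore named by their labels alone throughout. Slc25a26 rose with PE under both siRNAs, by 1.69 with siNeg and by 2.77 with siSlc25a26 on the log2 scale, and the difference between these effects was 1.06 (SE 0.128; edgeR adjusted p = 0.000466).

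The hypertrophy markers and the cell type were checked next. Nppa, which encodes atrial natriuretic peptide, rose 24.7-fold with PE in siNeg and 22.9-fold in siSlc25a26. Nppb, the B-type natriuretic peptide gene, rose 41.3-fold and 40.1-fold. With siSlc25a26, Nppa rose 2.21-fold without PE and 2.03-fold under PE, and Nppb 3.91-fold and 3.76-fold. Acta1, skeletal alpha-actin, rose 9.04-fold and 35.5-fold, and the difference between its effects was 1.95 on the log2 scale (SE 0.361; edgeR adjusted p = 0.00488). Between siRNAs Acta1 rose 2.71-fold under PE and gave -0.52 without PE (SE 0.218; edgeR adjusted p = 0.0802), which was called without siNeg 3 (-0.68) or siSlc25a26 1 (-0.79).

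All 10 cardiomyocyte markers were detected in all 12 libraries, with a summed level of 15064 to 16959 FPKM in the 6 libraries without PE and 19706 to 21944 FPKM in the 6 with PE, and Tnnt2, cardiac troponin T, was the most abundant. Of the 10, 4 rose with PE in siNeg and 5 in siSlc25a26 (4 on both FPKM scales), where 12.4% and 10.1% of all genes tested rose. In siSlc25a26 1 fell with PE without siSlc25a26.PE 1 or on the FPKM scale. With siSlc25a26 without PE, Myh6 fell 1.58-fold, where 7.20% of all genes fell. By the adjusted p alone 1 of the 10 was higher and 4 were lower with siSlc25a26 without PE, against 23.3% and 21.7% of all genes. Under PE 2 of the 10 were higher and 3 lower, against 20.1% and 20.1% of all genes.

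Markers of other cells moved with the groups, and are given here because they stand beside every result below. The 10 fibroblast markers, of which Col1a1 was the most abundant and none was at 0 in any library, summed to 4804, 4447 and 4457 FPKM in siNeg and to 2447, 2487 and 2465 FPKM in siNeg PE. In siSlc25a26 they summed to 2950, 2645 and 2734 FPKM, and in siSlc25a26 PE to 1612, 1695 and 1829 FPKM. The siNeg libraries without PE were thus the highest, and the 4 groups did not overlap. Col1a1 weighs heavily in this sum, with 2537.5 of the 4804 FPKM in siNeg 1 and 1238 of the 2447 FPKM in siNeg.PE 1. The markers did not all move one way. With PE in siNeg 2 of the 10 were higher and 5 lower by the adjusted p alone, against 25.2% and 24.3% of all genes. Of all genes tested 8.24% fell with PE in siNeg, 10.4% with PE in siSlc25a26, 7.20% with siSlc25a26 without PE and 8.10% under PE. In the same order 12.4%, 10.1%, 8.92% and 7.71% of all genes rose. These shares are to be set beside the counts here and in the next 2 paragraphs. Of the 10 fibroblast markers, 5 fell with PE in siNeg, 1 with PE in siSlc25a26 (2 without siSlc25a26 2 and 4 on both FPKM scales), 6 with siSlc25a26 without PE and 4 with siSlc25a26 under PE, where 1 rose (none without siNeg.PE 3 or siSlc25a26.PE 2 or on the FPKM scale). The 9 macrophage markers summed to 17.5 to 23.2 FPKM in siNeg, 8.87 to 10.8 FPKM in siNeg PE, 11.1 to 11.8 FPKM in siSlc25a26 and 8.23 to 9.74 FPKM in siSlc25a26 PE. Cd68 was the most abundant of them, and Cd163 was at 0 in every library other than siNeg 1. Of 7 tested, 5 fell with PE in siNeg, none with PE in siSlc25a26 and 5 with siSlc25a26 without PE, and under PE 1 of 6 fell; on log2(FPKM + 1) these counts were 2, 0, 2 and 0.

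The 6 endothelial markers summed to 4.69 to 5.98 FPKM over the 12 libraries, with Tek the most abundant and Emcn at 0 in 5 of them. This sum joins markers that moved in opposite directions with PE. Of 5 tested, Kdr fell 2.12-fold in siNeg and 1.94-fold in siSlc25a26, and Tek rose 1.65-fold in siSlc25a26, a count of rises that became 0 on both FPKM scales. In siNeg 2 fell without siNeg.PE 1, with limma-voom, with all 12 libraries in the fit or on log2(FPKM + 0.1). Myh6, Kdr and Tek are named after their values were seen. The 5 mural cell markers, led by Pdgfrb and none at 0, summed to 132 to 146 FPKM in siNeg, 85.5 to 92.4 FPKM in siNeg PE, 100.5 to 112 FPKM in siSlc25a26 and 109.8 to 119.99 FPKM in siSlc25a26 PE. With PE 3 of the 5 fell and 1 rose in siNeg (0 on both FPKM scales), and 2 rose in siSlc25a26 (1 on both FPKM scales and without any 1 of siSlc25a26.PE 2, siSlc25a26.PE 3, siSlc25a26 1, siSlc25a26 2 and siSlc25a26 3). With siSlc25a26 2 fell without PE, and under PE 1 rose and 2 fell (1 on both FPKM scales and without any 1 of siNeg.PE 2, siNeg.PE 3, siSlc25a26.PE 1 and siSlc25a26.PE 2).

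Interferon-induced genes separated the siRNAs more than any of these lists. The 8 genes, led by Irf7, summed to 65.4 to 78.6 FPKM in siNeg and 41.8 to 48.7 FPKM in siNeg PE, but to 3842 to 4192 FPKM in siSlc25a26 and 1811 to 2111 FPKM in siSlc25a26 PE. All 8 rose with siSlc25a26 both without PE and under PE, by up to 346-fold for Mx1 without PE and up to 135-fold for Ifit3 under PE. None of the 8 was at 0 in any library. With PE all 8 fell in siSlc25a26 (7 without siSlc25a26.PE 3 or siSlc25a26 1, where Irf7 gave -0.50 and -0.55), and 2 fell in siNeg (1 without siNeg 1, siNeg.PE 2 or siNeg.PE 3 or on log2(FPKM + 1), and 4 without siNeg.PE 1). Whether this response, or the differences in fibroblast and macrophage markers, have a part in any difference between siRNAs below was not tested.

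**Figure D1:**
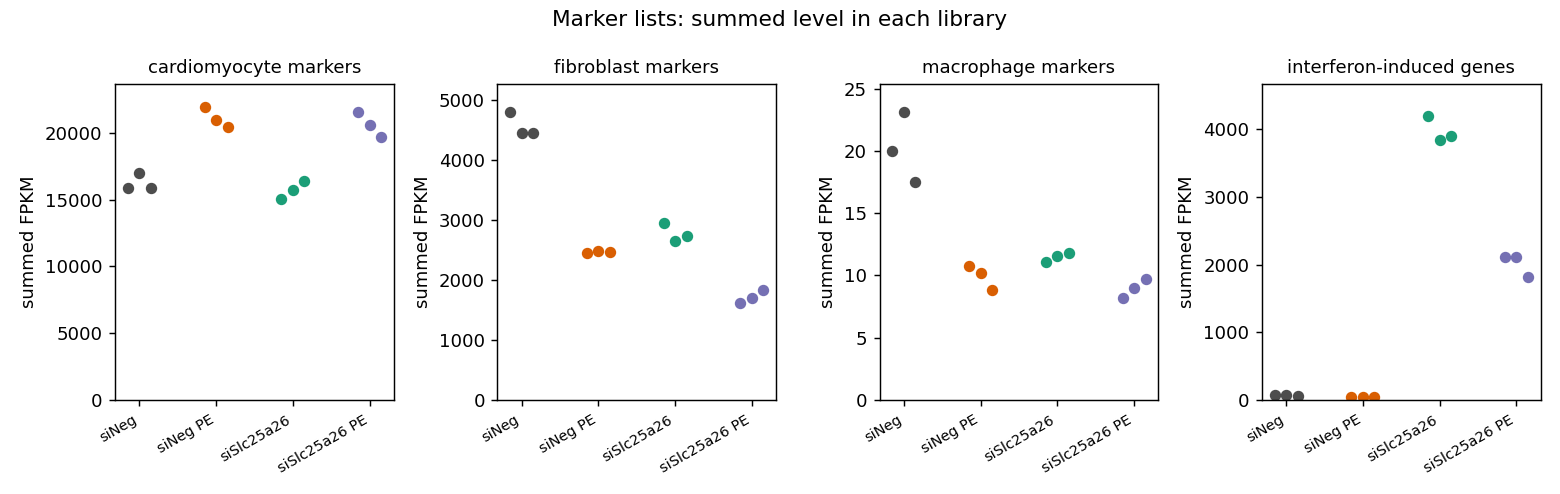
Summed FPKM of the cardiomyocyte, fibroblast and macrophage markers and of the interferon-induced genes in each of the 12 libraries (y axes start at 0; each point is 1 library). Fibroblast markers lie at 4447 FPKM or above in siNeg and at 2950 FPKM or below elsewhere, and interferon-induced genes lie at 1811 FPKM or above in both siSlc25a26 groups and at 78.6 FPKM or below in both siNeg groups.

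All 9 NRF2 antioxidant genes were expressed, passed the filter on low counts in every comparison, and none was at 0 in any library. In mean FPKM over the 12 libraries they ranked Nqo1 118, Nfe2l2 55.5, Txnrd1 42.8, Hmox1 31.7, Srxn1 24.7, Gsr 22.6, Gclc 19.5, Gclm 15.9 and Slc7a11 1.37. Across libraries each of the first 8 overlapped its neighbour in this order, so that Srxn1 (20.2 to 31.1 FPKM), Gsr (19.4 to 25.9 FPKM), Gclc (13.9 to 27.3 FPKM) and Gclm (13.6 to 19.4 FPKM) are not set apart by it. Slc7a11 lay apart from the other 8, at 0.80 to 2.46 FPKM and 154 to 467 counts a library, so its values are the least precise. Nqo1 also had a wide range, 59.4 to 201 FPKM, drawn in the plot of levels by library.

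**Figure D2:**
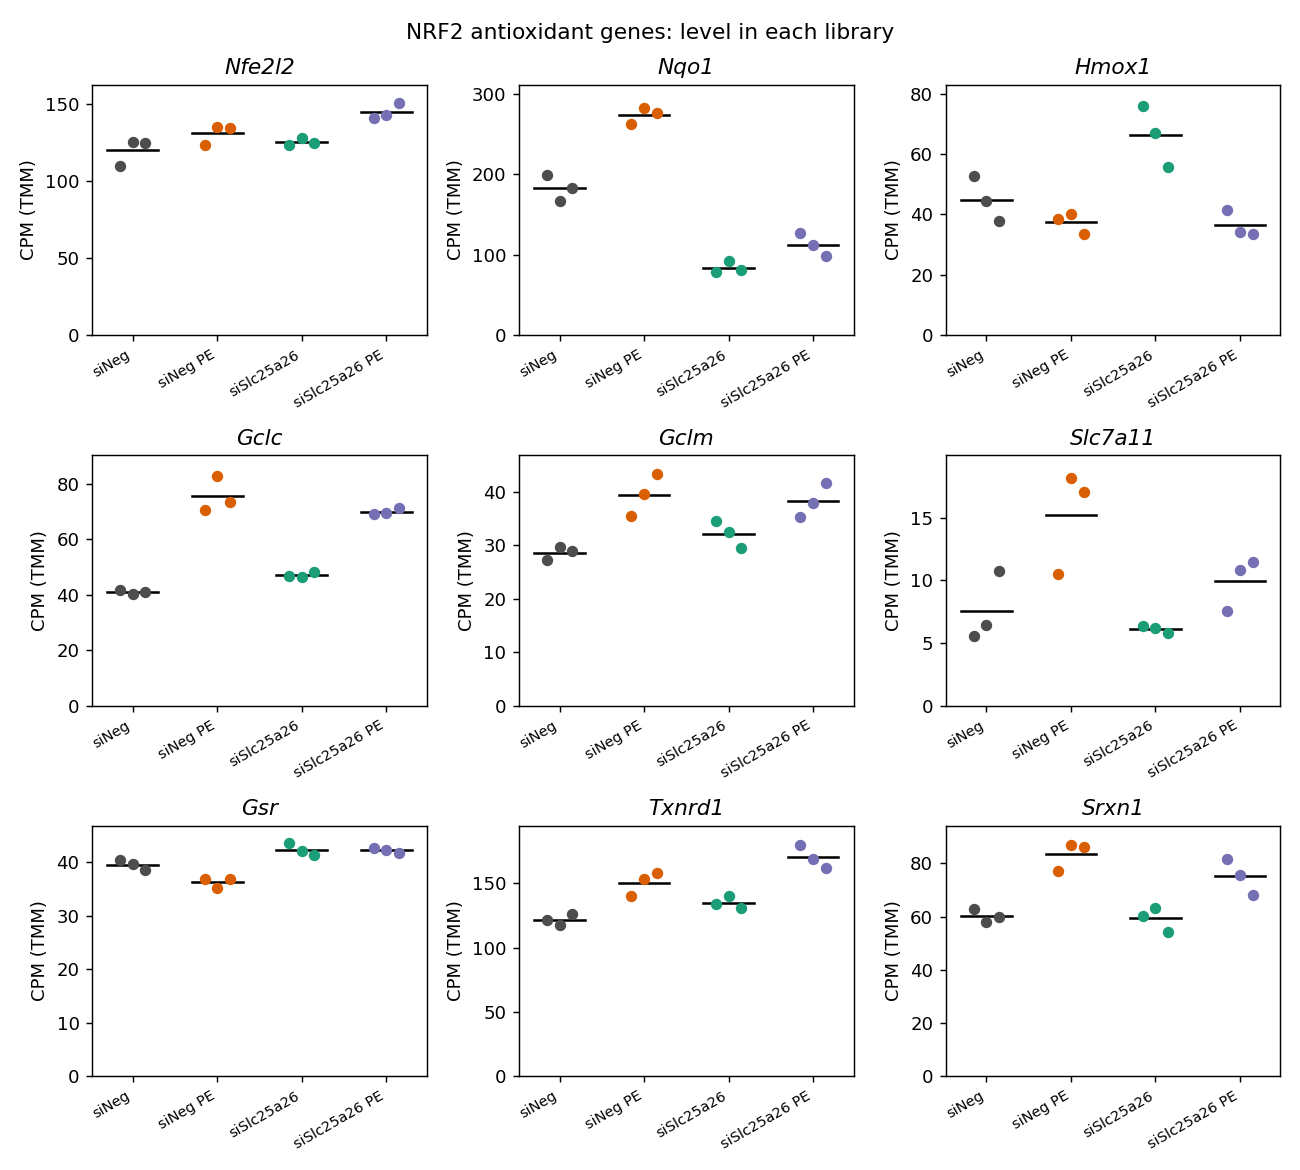
Level of the 9 NRF2 antioxidant genes in CPM (TMM-scaled; y axes start at 0), with 1 point for each library and a bar at the mean of 3. Nqo1 is at 127 CPM or lower in every siSlc25a26 library and at 166 CPM or above in every siNeg library, while Gclc is at 68.9 CPM or above in every PE library and at 48.0 CPM or below without PE.

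As a description, the promoters of these genes were searched for the core of the antioxidant response element. RefSeq promoter windows of assembly GRCr8, 250 bases before to 50 bases after a transcription start, were matched by gene for 7 of the 9 (8 windows, of which Txnrd1 has a pair); those of Hmox1 and Gsr were not analysed here. The core was spelled TGACNNNGC, and the variant TGAGNNNGC was added after the data had been seen; both strands were searched. TGACNNNGC occurs in 12.1% of all 33469 windows of this length, TGAGNNNGC in 17.2%, and either in 27.1%. Gclm, Nfe2l2 and 1 window of Txnrd1 held TGACNNNGC, and Srxn1 held TGAGNNNGC 3 times. The stretches around the matches are shown because they carry every match found, 5′ to 3′ on the gene's strand, with the matches, some of them read on the opposite strand, in capitals.

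Gclm, chr2:213031918-213032016 (+ strand): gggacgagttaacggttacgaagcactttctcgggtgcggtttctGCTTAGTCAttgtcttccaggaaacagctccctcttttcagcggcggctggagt
Nfe2l2, chr3:81028953-81028971 (- strand): gactagccatTGACGCCGC
Srxn1, chr3:161064649-161064815 (+ strand): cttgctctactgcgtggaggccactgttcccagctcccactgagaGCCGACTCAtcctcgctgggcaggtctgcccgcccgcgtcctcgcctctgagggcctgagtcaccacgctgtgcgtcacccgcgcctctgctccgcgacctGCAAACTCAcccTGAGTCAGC
Txnrd1, chr7:22755929-22756027 (- strand): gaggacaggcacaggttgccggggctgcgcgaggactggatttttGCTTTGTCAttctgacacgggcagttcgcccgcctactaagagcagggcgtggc

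In Gclm the match began 172 bases before the start, in Txnrd1 78 bases before it and in Nfe2l2 39 bases after it. In Srxn1 the 3 matches began 118, 17 and 5 bases before the start. The windows of Gclc, Nqo1 and Slc7a11 and the other window of Txnrd1 held neither spelling, which says only that these letters are not in these 300 bases. A match is a description of letters and not a bound site.

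Nfe2l2, the gene of NRF2 itself, varied little. Its level was 109.5, 125 and 125 CPM in siNeg, 123, 135 and 134 CPM in siNeg PE, 123, 128 and 125 CPM in siSlc25a26, and 141, 143 and 151 CPM in siSlc25a26 PE. The last group was the highest with no overlap, and the other 3 overlapped their neighbours in the order siNeg PE, siSlc25a26, siNeg. With PE the log2 fold change was 0.12 in siNeg (SE 0.0698; edgeR adjusted p = 0.197) and 0.22 in siSlc25a26 (SE 0.0506; edgeR adjusted p = 0.00595), the latter a 1.16-fold difference that became 0.04 on both FPKM scales (adjusted p = 0.499 and 0.504). Between siRNAs it was 0.04 without PE (edgeR adjusted p = 0.641) and 0.14 under PE (edgeR adjusted p = 0.107). Without siNeg 1, its lowest library, the value without PE turned to -0.02 (edgeR adjusted p = 0.735).

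Of the 15 regulators and partners of NRF2 listed, 14 were tested, and those called were Mafk, Maff and Cul3. Mafk, a small MAF protein that can pair with NRF2 and with the repressor BACH1, was measured at 44.1, 40.0 and 41.5 CPM in siNeg, 97.8, 97.6 and 74.0 CPM in siNeg PE, 52.0, 53.8 and 57.3 CPM in siSlc25a26, and 156, 158 and 157 CPM in siSlc25a26 PE. No 2 groups overlapped. Mafk rose 2.12-fold with PE in siNeg and 2.91-fold in siSlc25a26, and 1.73-fold with siSlc25a26 under PE, while without PE its siRNA difference of 0.35 (SE 0.0626; edgeR adjusted p = 0.00205) stayed under 1.5-fold. Its PE effects differed by 0.43 (SE 0.128; edgeR adjusted p = 0.0479), a difference that passed in 4 of the 12 fits with 1 library left out (without siNeg.PE 1, siNeg.PE 2, siNeg.PE 3 or siSlc25a26 3), with adjusted p up to 0.113.

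Cul3, the scaffold of the ligase that ubiquitinates NRF2, rose 1.67-fold with PE in siNeg (log2 fold change 0.74, SE 0.163; edgeR adjusted p = 0.00642). It was also higher by less than 1.5-fold with PE in siSlc25a26 (0.40, SE 0.116; edgeR adjusted p = 0.0179; not passed without siSlc25a26 1, 0.0698, or siSlc25a26 3, 0.0546, with all 12 libraries in the fit, 0.0531, or on the FPKM scale, 0.189 and 0.187). With siSlc25a26 without PE Cul3 gave 0.35 (SE 0.114; edgeR adjusted p = 0.0323; not passed without siNeg 2, 0.0680, siSlc25a26 1, 0.0646, siSlc25a26 2, 0.0982, or siSlc25a26 3, 0.0706, or with all 12 libraries in the fit, 0.0680). Maff, another small MAF, rose 1.56-fold with PE in siSlc25a26 (0.64, SE 0.131; edgeR adjusted p = 0.00314), but not without siSlc25a26 3 (0.52) or on the FPKM scale (0.38 with a pseudocount of 1 and 0.47 with 0.1). Keap1, the adaptor that holds NRF2, was lower with PE by less than 1.5-fold, at -0.31 in siNeg (SE 0.0581; edgeR adjusted p = 0.00314) and -0.38 in siSlc25a26 (SE 0.0747; edgeR adjusted p = 0.00251). Between siRNAs Keap1 was 0.28 higher without PE (SE 0.0482; edgeR adjusted p = 0.00156) and 0.21 under PE (SE 0.0835; edgeR adjusted p = 0.0778). Bach1, a repressor of antioxidant response elements, gave log2 fold changes of 0.08, 0.09, 0.00 and 0.01 in these 4 comparisons, in the order PE in siNeg, PE in siSlc25a26, siSlc25a26 without PE and siSlc25a26 under PE. The values of Bach1 between siRNAs changed sign without siNeg 1 (-0.01), siNeg 2 (-0.05), siSlc25a26 2 (-0.01) or siSlc25a26 3 (-0.02), and under PE without siNeg.PE 1 (-0.07), siNeg.PE 3 (-0.00), siSlc25a26.PE 2 (-0.00) or siSlc25a26.PE 3 (-0.05). Mafg gave -0.04, -0.15, 0.21 and 0.10 in the same order, of which the middle pair passed the adjusted p (edgeR, 0.0289 and 0.0101) and none reached 1.5-fold.

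Nqo1, a quinone reductase long used as a marker of NRF2 activity, differed most between the siRNAs. Its level was 199, 166 and 183 CPM in siNeg, 263, 282 and 275 CPM in siNeg PE, 77.7, 91.7 and 81.1 CPM in siSlc25a26, and 127, 112 and 98.1 CPM in siSlc25a26 PE. The order of the group means was siNeg PE (273 ± 9.97 CPM, SD, n = 3), siNeg (183 ± 16.5), siSlc25a26 PE (112 ± 14.4) and siSlc25a26 (83.5 ± 7.27), and no group overlapped another. Nqo1 fell 2.23-fold with siSlc25a26 without PE (log2 fold change -1.16, SE 0.0803; edgeR adjusted p = 6.98e-06). In the libraries labelled siSlc25a26 PE, where Slc25a26 RNA was not lower, it was 2.45-fold lower than in siNeg PE (-1.29, SE 0.0865; edgeR adjusted p = 7.64e-06). Both calls held in all 15 alternative fits, from -1.23 to -1.08 and from -1.38 to -1.19.

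With PE, Nqo1 was 1.48-fold higher in siNeg (0.57, SE 0.0738; edgeR adjusted p = 0.000575) and 1.35-fold higher in siSlc25a26 (0.44, SE 0.0952; edgeR adjusted p = 0.00431), with all 3 PE libraries above all 3 others in both. Neither reached 1.5-fold, although the value in siNeg did so without siNeg 1 (0.65) or without siNeg.PE 1 (0.60). The PE effects on Nqo1 differed by -0.15 (SE 0.132; edgeR adjusted p = 0.505).

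Hmox1, the inducible haem oxygenase, went the other way between siRNAs without PE. Its level was 52.7, 44.3 and 37.7 CPM in siNeg, 38.5, 40.0 and 33.5 CPM in siNeg PE, 75.9, 66.9 and 55.8 CPM in siSlc25a26, and 41.5, 34.1 and 33.4 CPM in siSlc25a26 PE. The siSlc25a26 libraries without PE were the highest and overlapped no other group, whereas siNeg overlapped siNeg PE and the PE groups overlapped each other. Hmox1 fell 1.81-fold with PE in siSlc25a26 (log2 fold change -0.86, SE 0.120; edgeR adjusted p = 0.000366), a call that held in all 15 alternative fits (-1.02 to -0.75). With PE in siNeg the value was -0.28 (SE 0.123; edgeR adjusted p = 0.0908), and -0.39 without siNeg 3 (edgeR adjusted p = 0.0141). The difference between the PE effects was -0.60 (SE 0.192; edgeR adjusted p = 0.0645; DESeq2 adjusted p = 0.0289 at -0.57). It passed both thresholds without siNeg 1 (-0.73), without siSlc25a26.PE 1 (-0.71), without siSlc25a26 3 (-0.70) and on the FPKM scale (-0.69 with a pseudocount of 1 and -0.71 with 0.1). With a block for replicate number it also passed both (-0.60, edgeR adjusted p = 0.00330), although those numbers pair the samples by no stated design.

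Without PE, Hmox1 was 1.45-fold higher with siSlc25a26 (0.53, SE 0.136; edgeR adjusted p = 0.0118). That is just under the 1.5-fold threshold, which it passed without siNeg 1 (0.66), without siSlc25a26 3 (0.64) or on the FPKM scale with a pseudocount of 0.1 (0.59). On that FPKM scale the median of all genes itself moved from 0.01 to 0.07. Under PE the siRNAs gave -0.05 for Hmox1 (SE 0.103; edgeR adjusted p = 0.732), a value that turned to 0.00 without siSlc25a26.PE 2 and to 0.02 without siSlc25a26.PE 3.

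Gclc and Gclm encode the catalytic and modifier subunits of glutamate-cysteine ligase, the rate-limiting enzyme of glutathione synthesis. Gclc was at 41.6, 40.2 and 41.1 CPM in siNeg, 70.5, 82.8 and 73.5 CPM in siNeg PE, 46.6, 46.3 and 48.0 CPM in siSlc25a26, and 68.9, 69.6 and 71.2 CPM in siSlc25a26 PE. Every PE library lay above every library without PE, the PE groups overlapped each other, and siSlc25a26 lay above siNeg without overlap. Gclc rose 1.83-fold with PE in siNeg (log2 fold change 0.87, SE 0.0720; edgeR adjusted p = 6.53e-05), a call that held in all 15 alternative fits. With PE in siSlc25a26 it was 0.58 higher (SE 0.0530; edgeR adjusted p = 2.65e-05), at the edge of the 1.5-fold threshold, which it passed with DESeq2 (0.59), with its size factors (0.59), with no filter (0.59), and without siSlc25a26.PE 1 (0.60), siSlc25a26.PE 2 (0.59) or siSlc25a26 3 (0.60).

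The PE effect on Gclc was smaller in siSlc25a26 than in siNeg by -0.31 on the log2 scale (SE 0.0852; edgeR adjusted p = 0.0359). This difference was under 1.5-fold, and its adjusted p passed 0.05 with 1 library left out only for siNeg 3, siNeg.PE 1 and siSlc25a26.PE 3, lying between 0.0531 and 0.0865 without each of the other 9. Between siRNAs Gclc was 0.17 higher without PE (SE 0.0523; edgeR adjusted p = 0.0260), which did not pass with DESeq2 (adjusted p = 0.0819) or without siNeg 2 (0.122), siNeg 3 (0.0621), siSlc25a26 1 (0.0716), siSlc25a26 2 (0.0639) or siSlc25a26 3 (0.0915). Under PE the value was -0.12 (SE 0.0716; edgeR adjusted p = 0.213).

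Gclm followed a like course at a smaller size. Its level was 27.2, 29.8 and 28.9 CPM in siNeg, 35.5, 39.7 and 43.3 CPM in siNeg PE, 34.5, 32.5 and 29.6 CPM in siSlc25a26, and 35.4, 37.9 and 41.7 CPM in siSlc25a26 PE. The PE groups overlapped each other and lay above the groups without PE, which also overlapped. With PE it was 1.37-fold higher in siNeg (0.45, SE 0.0885; edgeR adjusted p = 0.00378) and 1.20-fold higher in siSlc25a26 (0.26, SE 0.0850; edgeR adjusted p = 0.0289). The value in siSlc25a26 missed the adjusted p without siSlc25a26.PE 2 (0.0681), siSlc25a26.PE 3 (0.0747), siSlc25a26 2 (0.0756) or siSlc25a26 3 (0.107). On the FPKM scale it turned to -0.04, where the median of all genes in that comparison itself moved to -0.12 with a pseudocount of 1 and to -0.17 with 0.1. Between siRNAs Gclm gave 0.14 without PE (edgeR adjusted p = 0.157) and -0.05 under PE (edgeR adjusted p = 0.683; 0.00 without siSlc25a26.PE 1).

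Slc7a11, the cystine carrier that supplies the cysteine for glutathione, had the lowest level. It was at 5.58, 6.41 and 10.7 CPM in siNeg, 10.5, 18.2 and 17.0 CPM in siNeg PE, 6.34, 6.19 and 5.80 CPM in siSlc25a26, and 7.57, 10.8 and 11.4 CPM in siSlc25a26 PE. Libraries siNeg.PE 2 and siNeg.PE 3 were the highest, siNeg 3 lay above siNeg.PE 1, the siSlc25a26 PE libraries lay above all siSlc25a26 ones, and each group overlapped the next in the order siNeg PE, siSlc25a26 PE, siNeg, siSlc25a26. Slc7a11 rose 1.999-fold with PE in siNeg (log2 fold change 1.00, SE 0.277; edgeR adjusted p = 0.0176), a call lost without siNeg 1 (adjusted p = 0.0534), siNeg 2 (0.0722) or siNeg.PE 2 (0.0632) and on the FPKM scale (0.0631 and 0.0670 with pseudocounts of 1 and 0.1). It rose 1.64-fold with PE in siSlc25a26 (0.71, SE 0.157; edgeR adjusted p = 0.00464), a call lost only on the FPKM scale (0.0894 and 0.106).

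Between siRNAs, Slc7a11 gave -0.33 without PE (SE 0.217; edgeR adjusted p = 0.241). In the libraries labelled siSlc25a26 PE it was 1.54-fold lower than in siNeg PE (-0.62, SE 0.216; edgeR adjusted p = 0.0469), with overlap between the groups. That call rests on few libraries: it was lost without siNeg.PE 2 (-0.48), siNeg.PE 3 (-0.56), siSlc25a26.PE 1 (-0.46), siSlc25a26.PE 2 (-0.68) or siSlc25a26.PE 3 (-0.73), and with limma-voom, the fit of all 12 libraries and both FPKM fits. Slc7a11's PE effects differed by -0.31 (SE 0.353; edgeR adjusted p = 0.620).

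Gsr, glutathione reductase, which returns oxidised glutathione to its reduced form, was the steadiest of the targets. Its level was 40.5, 39.6 and 38.6 CPM in siNeg, 36.9, 35.2 and 36.8 CPM in siNeg PE, 43.6, 42.2 and 41.3 CPM in siSlc25a26, and 42.8, 42.4 and 41.7 CPM in siSlc25a26 PE. The siSlc25a26 groups overlapped at the top, siNeg came next and siNeg PE was lowest, without overlap. With PE it gave -0.14 in siNeg (SE 0.0606; edgeR adjusted p = 0.0935) and 0.01 in siSlc25a26 (SE 0.0552; edgeR adjusted p = 0.932; -0.01 without siSlc25a26 3). Between siRNAs it gave 0.07 without PE (edgeR adjusted p = 0.314) and 0.21 under PE (SE 0.0636; edgeR adjusted p = 0.0274), the latter not passing without siNeg.PE 2 (0.112), siNeg.PE 3 (0.0591), siSlc25a26.PE 1 (0.0531) or siSlc25a26.PE 2 (0.0906), or on the FPKM scale (0.0780 and 0.0791 with pseudocounts of 1 and 0.1).

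Txnrd1, cytosolic thioredoxin reductase, is a selenoprotein that keeps thioredoxin reduced. Its level was 121, 118 and 126 CPM in siNeg, 139.99, 153 and 158 CPM in siNeg PE, 134, 140.4 and 131 CPM in siSlc25a26, and 180.2, 169 and 162 CPM in siSlc25a26 PE. The group labelled siSlc25a26 PE was the highest and siNeg the lowest, and only siNeg PE and siSlc25a26 overlapped among neighbours. With PE it was 1.23-fold higher in siNeg (0.29, SE 0.0648; edgeR adjusted p = 0.00665) and 1.27-fold higher in siSlc25a26 (0.34, SE 0.0544; edgeR adjusted p = 0.000724). Between siRNAs it gave 0.12 without PE (SE 0.0484; edgeR adjusted p = 0.0634), which passed on the FPKM scale at 0.18 (adjusted p = 0.0227 and 0.0242 with pseudocounts of 1 and 0.1). On those scales the median of all genes in that comparison itself moved from 0.01 to 0.05 and 0.07. Under PE Txnrd1 gave 0.17 (SE 0.0640; edgeR adjusted p = 0.0611), which passed without siSlc25a26.PE 3 (0.0483) and with all 12 libraries in the fit (0.0258).

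Srxn1 encodes sulfiredoxin, which repairs over-oxidised peroxiredoxins. Its level was 62.8, 58.1 and 60.0 CPM in siNeg, 77.2, 87.0 and 86.3 CPM in siNeg PE, 60.4, 63.2 and 54.4 CPM in siSlc25a26, and 81.8, 75.8 and 67.9 CPM in siSlc25a26 PE. All 6 PE libraries lay above all 6 others, with overlap between siRNAs in both sets. With PE it was 1.37-fold higher in siNeg (0.46, SE 0.0694; edgeR adjusted p = 0.00119) and 1.28-fold higher in siSlc25a26 (0.35, SE 0.0802; edgeR adjusted p = 0.00550; not passed on the FPKM scale, 0.105 and 0.104). Between siRNAs it gave -0.05 without PE (edgeR adjusted p = 0.560; 0.01 without siSlc25a26 3) and -0.16 under PE (edgeR adjusted p = 0.137).

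**Figure D3:**
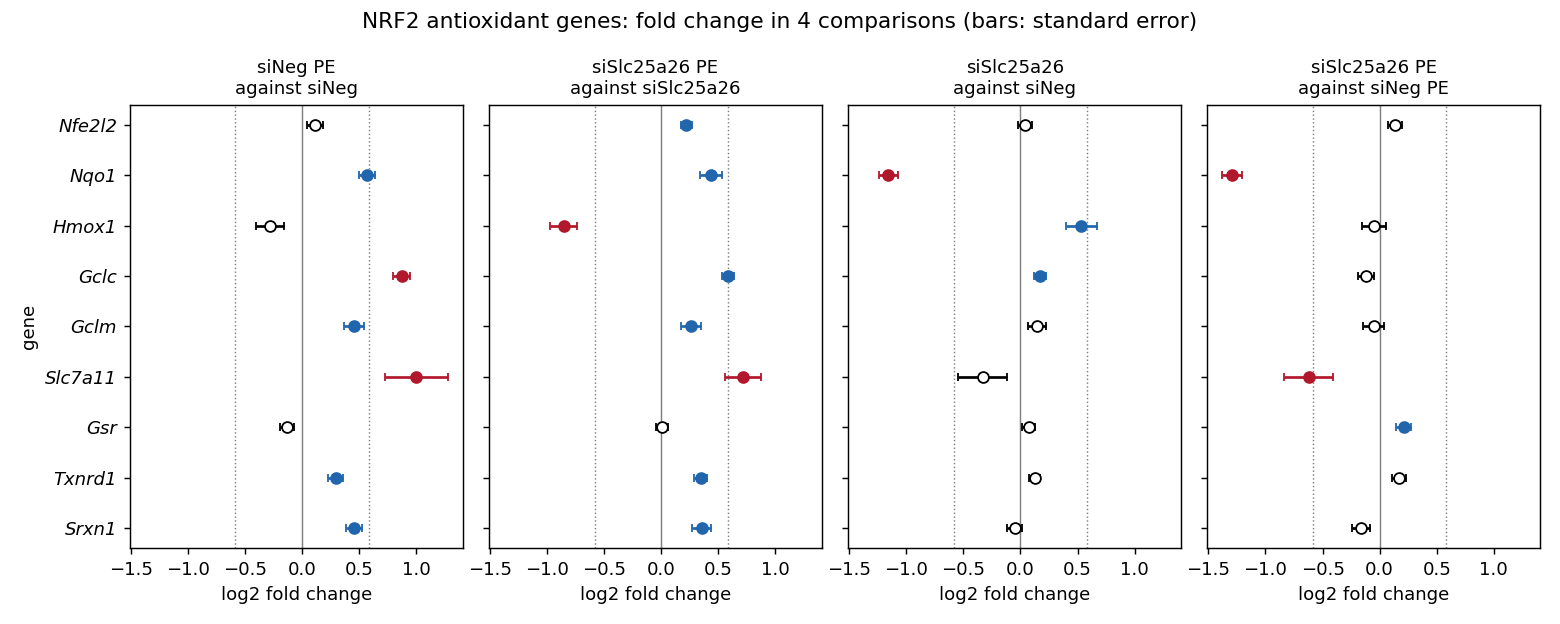
Log2 fold change (x axis) of each NRF2 antioxidant gene in 4 comparisons, with bars of 1 standard error and dotted lines at a fold change of 1.5; red points were called, blue points passed the adjusted p of 0.05 alone and open points passed neither. Nqo1 stands apart between the siRNAs at -1.16 and -1.29, and most genes lie to the right of 0 with PE.

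Counted by comparison, PE in siNeg raised 2 of the 9, Gclc and Slc7a11, and lowered none, where 12.4% of the 13719 genes tested rose and 8.24% fell. By the adjusted p alone 6 of the 9 were higher (Nqo1, Gclc, Gclm, Txnrd1, Srxn1 and Slc7a11) and none lower, against 25.2% and 24.3% of all genes. Hmox1 passed as lower without siNeg 3 (adjusted p = 0.0141), and Gsr on the FPKM scale (0.0303 and 0.0308 with pseudocounts of 1 and 0.1). With a block for replicate number Hmox1 (edgeR adjusted p = 0.00759) and Gsr (0.0433) passed as lower and Nfe2l2 (0.0234) as higher. In the main test no member was lower at an unadjusted p under 0.05 either, and none was called lower by DESeq2 or limma-voom. The median log2 fold change of the 9 was 0.45, beside 0.00 for all genes. The count of 2 became 1 without siNeg 2 or siNeg.PE 2, and 3 without siNeg.PE 1, where Nqo1 passed.

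PE in siSlc25a26 raised 1 of the 9, Slc7a11, and lowered 1, Hmox1, where 10.1% of the 13776 genes tested rose and 10.4% fell. By the adjusted p alone 7 were higher, the same 6 genes and Nfe2l2, and Hmox1 was lower, against 26.4% and 26.0% of all genes. On both FPKM scales 3 of the 7 still passed (Nqo1, Gclc and Txnrd1), and Gsr passed as lower (adjusted p = 0.0206 and 0.0208 with pseudocounts of 1 and 0.1). The median of the 9 was 0.34, beside -0.00 for all genes. The count of risen genes became 2, with Gclc, without siSlc25a26.PE 1, siSlc25a26.PE 2 or siSlc25a26 3. On the FPKM scale it became 0, where the share of rises among all genes called in this comparison moved from 49.2% to 27.4% with a pseudocount of 1 and to 26.9% with 0.1.

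Without PE, siSlc25a26 lowered 1 of the 9, Nqo1, and raised none, where 7.20% of the 13829 genes tested fell and 8.92% rose. By the adjusted p alone Hmox1 and Gclc were higher and Nqo1 lower, against 23.3% and 21.7% of all genes, and Txnrd1, with an unadjusted p of 0.0305, passed on both FPKM scales. DESeq2 and limma-voom called none higher either. The median of the 9 was 0.07, beside 0.01 for all genes, with 6 above 0 and 3 below. The count of risen genes became 1, Hmox1, without siNeg 1 or siSlc25a26 3.

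Under PE, siSlc25a26 went with lower levels of 2 of the 9, Nqo1 and Slc7a11, and none was called higher, where 8.10% of the 13671 genes tested fell and 7.71% rose. In these libraries Slc25a26 RNA was not lower, so the comparison is one of labels. By the adjusted p alone Gsr was higher and the same pair lower, against 20.1% and 20.1% of all genes. Gsr did not pass on either FPKM scale or in 4 of the fits with 1 library left out (given above), and Txnrd1, with an unadjusted p of 0.0258, passed without siSlc25a26.PE 3 and with all 12 libraries in the fit. DESeq2 and limma-voom called none higher. The median of the 9 was -0.05, beside -0.00 for all genes. The count of 2 became 1 without any 1 of siNeg.PE 2, siNeg.PE 3, siSlc25a26.PE 1, siSlc25a26.PE 2 and siSlc25a26.PE 3, each time for Slc7a11.

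The test of the difference between the PE effects called none of the 9, where 2.16% of the 14097 genes tested were called with a higher PE effect in siSlc25a26 and 3.34% with a lower one. By the adjusted p alone Gclc was lower and none was higher, against 5.73% and 5.48% of all genes. At an unadjusted p under 0.05 there were Hmox1 (0.00838) and Gclc (0.00315), and DESeq2 and limma-voom called none. Hmox1 made the count of lower genes 1 on both FPKM scales, with a block for replicate number, and without siNeg 1, siSlc25a26.PE 1 or siSlc25a26 3. The median of the 9 was -0.15, beside -0.05 for all genes. In the same test 3 of 7 macrophage markers and 2 of 5 mural cell markers were called higher, and 3 of 8 interferon-induced genes lower. The 3 macrophage markers became 1 without siNeg 1, siNeg 2, siNeg.PE 2, siNeg.PE 3, siSlc25a26.PE 3, siSlc25a26 1 or siSlc25a26 2 and on log2(FPKM + 1). The 2 mural cell markers became 1 without siNeg 1, siNeg.PE 3, siSlc25a26.PE 2 or siSlc25a26 2 and on both FPKM scales. The 3 interferon-induced genes became 2 in 9 of the 12 fits with 1 library left out and 1 with limma-voom, and 1 of the 8 was called higher without siNeg 3, siNeg.PE 1 or siSlc25a26.PE 3. Whether these lists have a part in the values of the 9 was not tested. On the FPKM scale the median of all genes moved to -0.10 and -0.14 with pseudocounts of 1 and 0.1, and the share of higher genes among those called from 39.3% to 23.5% and 21.9%.

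The wider NRF2-linked pathways were counted in 7 lists, drawn in the plot of the gene lists: regulators and partners, glutathione, thioredoxin and peroxiredoxin, NADPH supply, haem and iron, detoxification and export, and superoxide dismutases with catalase. Of their 94 symbols, 9 of 87 tested rose (10.3%, beside 12.4% of all genes) and 5 fell (5.75%, beside 8.24%) with PE in siNeg (median log2 fold change -0.04), and 6 of 85 rose (7.06%, beside 10.1%) and 9 fell (10.6%, beside 10.4%) with PE in siSlc25a26 (median -0.09). With siSlc25a26, 3 of 86 rose (3.49%, beside 8.92%) and 11 fell (12.8%, beside 7.20%) without PE (median -0.14), and 3 of 87 rose (3.45%, beside 7.71%) and 14 fell (16.1%, beside 8.10%) under PE (median -0.21). With 1 library left out the 11 became 8 to 14 and the 14 became 10 to 17, the 10 without siSlc25a26.PE 3, where 6 were in the glutathione list. With all libraries that list held 7 of the 11 and 10 of the 14. On the FPKM scale the 9 that fell with PE in siSlc25a26 became 16 and 18 with pseudocounts of 1 and 0.1. In the other 6 lists 4 of 60 fell in each siRNA comparison (6.67%), beside the same 7.20% and 8.10% of all genes, a difference that was not tested.

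**Figure D4:**
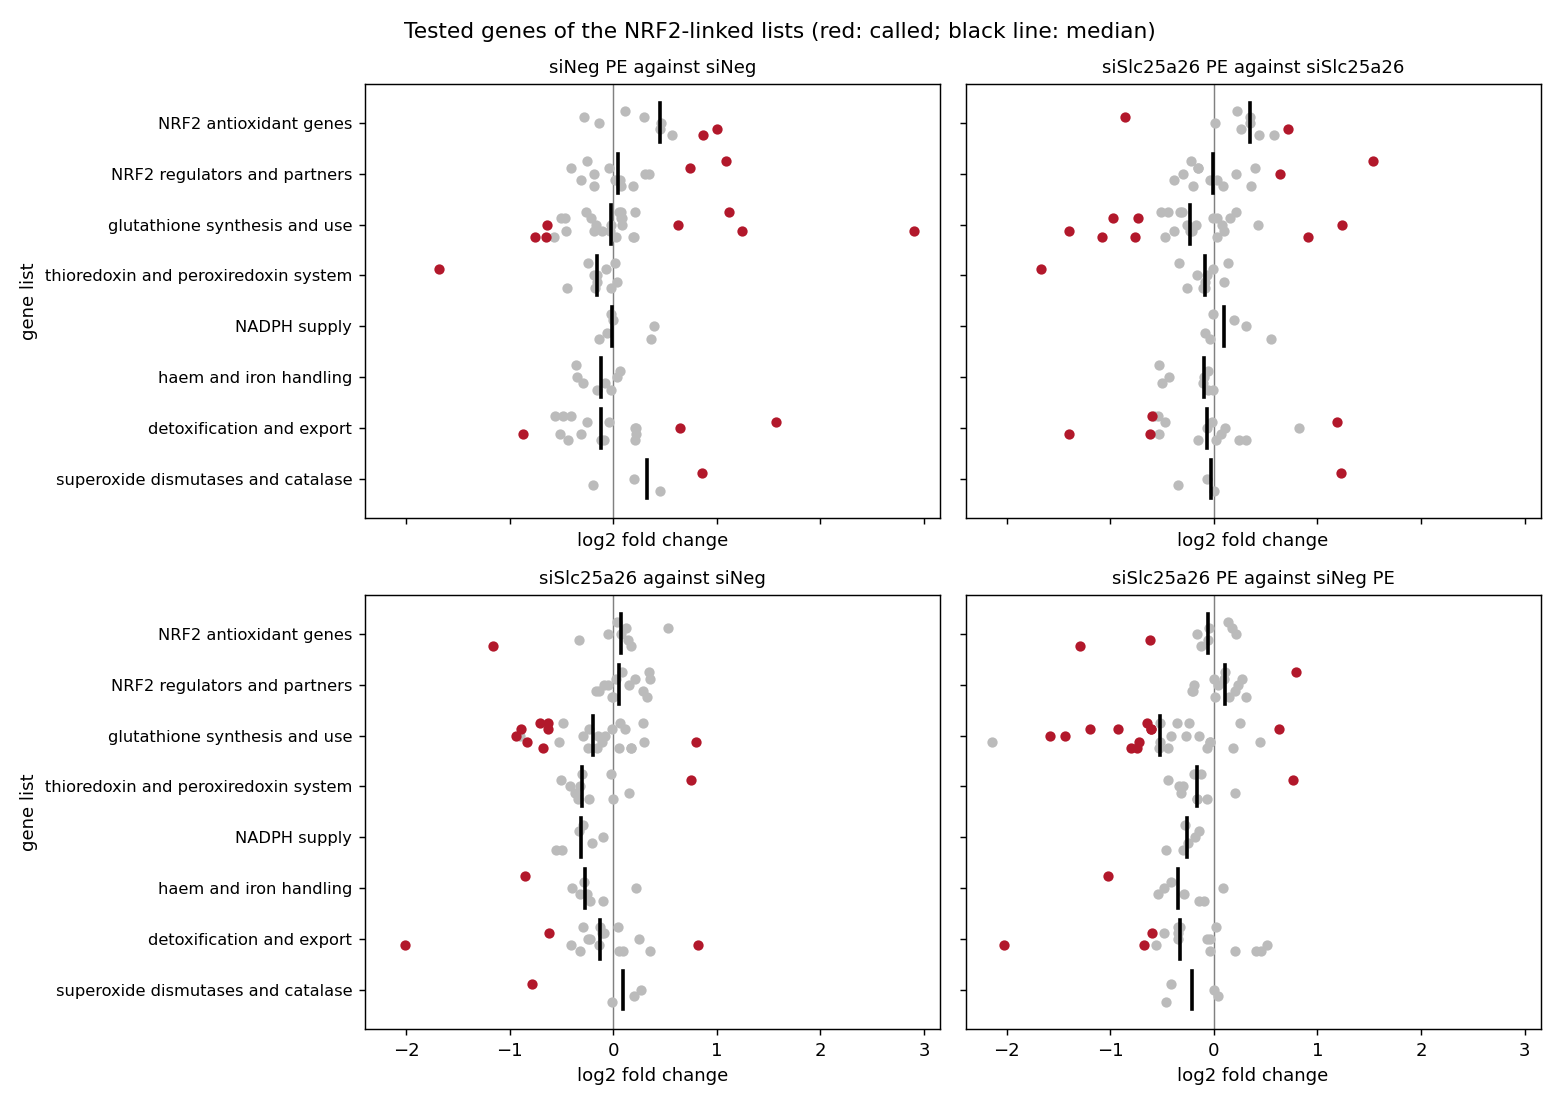
Log2 fold change (x axis) of each tested gene in the NRF2 antioxidant genes and 7 linked lists, in 4 comparisons; red points were called and the black line is the list's median. The glutathione list lies to the left of 0 between siRNAs under PE, with a median of -0.52, and the NADPH list lies wholly to the left of 0 in both siRNA comparisons.

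The list for glutathione synthesis and use, 31 genes in the tables, was the longest of the 7. With PE in siNeg 4 of 27 rose and 3 fell, where 12.4% of all genes tested rose and 8.24% fell. The largest rise was that of Gsta2, a glutathione transferase, at 7.47-fold (log2 fold change 2.90, SE 0.743; edgeR adjusted p = 0.0127), but its level was at most 2.37 CPM and the call was lost without siNeg.PE 2 (2.20; adjusted p = 0.0522). Gpx1, the main cytosolic glutathione peroxidase, fell 1.69-fold. With PE in siSlc25a26 2 of 25 rose, led by Mgst2 at 2.35-fold, and 5 fell (8 on both FPKM scales), led by Gstm7 at 2.64-fold. In that comparison 10.1% of all genes tested rose and 10.4% fell. Gstp1, a transferase and the most abundant gene of the list at a mean of 567 FPKM, is an example of the siRNA difference: it was at 480, 493 and 469.6 CPM in siNeg and 290.1, 323 and 286 CPM in siSlc25a26, and fell 1.63-fold.

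With siSlc25a26 without PE, 7 of the 26 glutathione genes tested fell, with Gstk1 the largest fall at 1.91-fold, and 1 rose, the secreted peroxidase gene Gpx3 at 1.74-fold. Of all genes tested 7.20% fell and 8.92% rose there. Under PE, 10 of 27 fell (6 without siSlc25a26.PE 3), among them Gstp1 at 1.68-fold and Ggt5 at 2.99-fold, and 1 rose, Ggt7 at 1.54-fold. In that comparison 8.10% of all genes tested fell and 7.71% rose. Ggt5 was near the limit of detection, at a mean of 0.298 FPKM, and was lost without siNeg.PE 2 (adjusted p = 0.0613), without siSlc25a26.PE 3 (0.0571), with DESeq2 (0.0728) or on log2(FPKM + 1), where its value of -1.58 became -0.33, and Ggt7 fell under 1.5-fold without siNeg.PE 2 (0.54) and on the FPKM scale (0.33 and 0.52). The transferase genes are a family of close paralogs, and since the counting method is not given in the sources used here, how reads were shared among them is not known. Neither is strandedness, so reads from antisense transcripts may be counted.

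In the thioredoxin and peroxiredoxin list 1 of 11 tested genes was called in each comparison of groups, and it was the same gene, Txnip, whose product binds and inhibits thioredoxin. Txnip was at 356, 263 and 376 CPM in siNeg, 102, 97.6 and 113 CPM in siNeg PE, 559, 671 and 470.1 CPM in siSlc25a26, and 189.98, 177 and 165 CPM in siSlc25a26 PE. No groups overlapped. It fell 3.21-fold and 3.17-fold with PE in siNeg and in siSlc25a26, and rose 1.68-fold and 1.69-fold with siSlc25a26 without PE and under PE. The other 10 genes were not called, and the medians of the list were -0.16, -0.09, -0.30 and -0.17. By the adjusted p alone 6, 3, 7 and 4 of the 11 were lower in the same order. Of all genes 24.3%, 26.0%, 21.7% and 20.1% were. Without siNeg 3, 1 gene of the list was also called lower with siSlc25a26 without PE. Prdx2, the most abundant at 487 FPKM, was lower by less than 1.5-fold between siRNAs (-0.37, SE 0.0515, edgeR adjusted p = 0.000506 without PE; -0.31, SE 0.0779, edgeR adjusted p = 0.0115 under PE).

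None of the 6 genes for the supply of NADPH, the reductant that Nqo1, Gsr and Txnrd1 use, was called in any comparison. All 6 had values below 0 in both siRNA comparisons, with medians of -0.31 without PE and -0.26 under PE. At an adjusted p under 0.05, 5 of the 6 were lower in each, where 21.7% of all genes were lower without PE and 20.1% under PE. Tkt, transketolase, was the most abundant at 128 FPKM and gave -0.55 without PE (SE 0.0507; edgeR adjusted p = 4.31e-05), which passed 1.5-fold without siNeg 3 (-0.60). With PE the medians were -0.01 in siNeg and 0.09 in siSlc25a26, where 1 gene was called higher without siSlc25a26.PE 3.

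Among the 8 genes of haem and iron handling, the ferritin light chain gene Ftl1 was the only one called. It was at 2130.3, 2259.9 and 1944 CPM in siNeg, 1722, 1748 and 1522 CPM in siNeg PE, 1245, 1239 and 1102 CPM in siSlc25a26, and 863, 846 and 764 CPM in siSlc25a26 PE. The 4 groups did not overlap. Ftl1 fell 1.80-fold with siSlc25a26 without PE and 2.03-fold under PE. Hmox1, whose product frees iron from haem, was 1.45-fold higher without PE (edgeR adjusted p = 0.0118) and gave -0.05 under PE (edgeR adjusted p = 0.732). Whether the values of Ftl1 and Hmox1 are linked was not tested. Ferritin genes have many processed pseudogenes, which the counts may include. Fth1, the heavy chain and the most abundant of the list at 2187 FPKM, was lower by less than 1.5-fold (-0.28, SE 0.0479, edgeR adjusted p = 0.00157 without PE; -0.41, SE 0.0889, edgeR adjusted p = 0.00596 under PE). Without siSlc25a26.PE 1, 2 of the 8 were called lower under PE and 1 with PE in siSlc25a26, where 2 were on both FPKM scales.

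Of the 18 genes for detoxification and export, 17 were tested. Akr1b8, an aldo-keto reductase and known NRF2 target, rose with PE 2.98-fold in siNeg and 2.28-fold in siSlc25a26, from 8.12 to 14.2 CPM in siNeg to 26.6 to 39.0 CPM in siNeg PE. In all, 2 rose and 1 fell with PE in siNeg, and 1 rose and 3 fell in siSlc25a26, with the export pump gene Abcc3 the largest fall in both at 1.82-fold and 2.63-fold. Of all genes tested 12.4% rose and 8.24% fell with PE in siNeg, and 10.1% rose and 10.4% fell in siSlc25a26. With 1 library left out, the 2 became 1 without siNeg 1, the 1 that fell became 2 without siNeg.PE 3, and the 3 became 5 without siSlc25a26.PE 1 or siSlc25a26 2 and 1 without siSlc25a26.PE 3. The 2 also became 1 on log2(FPKM + 1) and with all 12 libraries in the fit, the 1 that fell became 2 on both FPKM scales, and the 3 became 5 and 7 with pseudocounts of 1 and 0.1.

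Between siRNAs the largest change in that list was a fall of Aox1, aldehyde oxidase, from 17.2 to 19.8 CPM in siNeg to 4.10 to 5.69 CPM in siSlc25a26, 4.03-fold, and 4.08-fold under PE. Ptgr1, prostaglandin reductase, was the most abundant at 59.9 FPKM and fell 1.53-fold and 1.51-fold, calls lost without siNeg 2 (-0.56) or siSlc25a26 3 (-0.57) or on the FPKM scale (-0.55 with either pseudocount) in the one and without siNeg.PE 2 (-0.55), siSlc25a26.PE 2 (-0.57) or siSlc25a26.PE 3 (-0.52) in the other. Osgin1, another known NRF2 target, went the other way and rose 1.77-fold without PE, from 11.6 to 14.98 CPM to 22.8 to 25.1 CPM. In all, 2 fell and 1 rose without PE, and 3 fell and none rose under PE (1 rose without siSlc25a26.PE 3). Of all genes tested 7.20% fell and 8.92% rose without PE, and 8.10% fell and 7.71% rose under PE.

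Of the 4 superoxide dismutase and catalase genes, only Sod3, the extracellular dismutase, was called. It was at 77.3, 71.4 and 67.4 CPM in siNeg, 139, 130.04 and 125 CPM in siNeg PE, 42.4, 41.1 and 44.6 CPM in siSlc25a26, and 104, 97.5 and 95.7 CPM in siSlc25a26 PE, with no overlap between groups. Sod3 rose 1.81-fold and 2.34-fold with PE, and fell 1.72-fold with siSlc25a26 without PE. Without siNeg.PE 1, 1 more gene of the list was called higher with PE in siNeg and 1 lower with siSlc25a26 under PE. Sod1, the most abundant at 624 FPKM, was lower with PE by less than 1.5-fold (-0.20, SE 0.0532, edgeR adjusted p = 0.0152 in siNeg; -0.35, SE 0.0680, edgeR adjusted p = 0.00248 in siSlc25a26).

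The ATF4 response shares Slc7a11 as a target with NRF2, so its 12 genes were counted beside it. With PE 4 fell in siNeg (2 without siNeg 1) and none rose, and in siSlc25a26 4 fell (6 and 7 on the FPKM scale with pseudocounts of 1 and 0.1) and 1, Atf3, rose 1.68-fold, a call lost on the FPKM scale (0.53 and 0.56), where that of Slc7a11 was lost as well. Slc7a11 rose in both, although its call in siNeg was lost in 5 of 15 alternatives. Whether ATF4 has a part in the values of Slc7a11 was not tested. Of all genes tested, 8.24% fell and 12.4% rose with PE in siNeg, and 10.4% fell and 10.1% rose in siSlc25a26. Between siRNAs, 7.20% of all genes fell and 8.92% rose without PE, and 8.10% fell and 7.71% rose under PE. Phgdh fell 1.65-fold in siNeg, Trib3 fell 1.505-fold there, a call lost without siNeg 1 (-0.56), siNeg 2 (-0.58) or siNeg.PE 1 (-0.55) and with DESeq2 (-0.58), its size factors (-0.58) and all 12 libraries (-0.58), and Chac1 fell 1.70-fold in siSlc25a26. Atf4, the most abundant at 287 FPKM, was lower with PE by less than 1.5-fold, at -0.37 in both (SE 0.0486 and 0.0501; edgeR adjusted p = 0.000618 and 0.000289). With siSlc25a26 Atf3 rose 2.51-fold without PE and 3.18-fold under PE, and Ddit3 rose 1.66-fold and 1.69-fold. By the adjusted p alone 2 of the 12 were higher and 5 lower without PE, against 23.3% and 21.7% of all genes. Under PE 3 were higher and 4 lower, against 20.1% and 20.1%. The medians of the list were -0.04 without PE and -0.06 under PE, beside 0.01 and -0.00 for all genes. None of the 12 fell without PE, although 1 did without siNeg 2, siNeg 3, siSlc25a26 1 or siSlc25a26 2, with DESeq2 or with its size factors.

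How the 9 genes ran together was described by Pearson correlation of log2 CPM over the 12 libraries, which fall into 4 groups, so each value mostly reflects the group means. Gclc ran with Srxn1 (r = 0.890), Gclm (0.889) and Txnrd1 (0.842), and Nfe2l2 ran with Txnrd1 (0.843) and Gclm (0.776). Nqo1 had r = 0.612 with Slc7a11, 0.577 with Srxn1, 0.328 with Gclc, 0.170 with Gclm, -0.0445 with Txnrd1, -0.177 with Nfe2l2 and -0.902 with Gsr. Hmox1 had a negative r with every member other than Gsr (0.481), the lowest being -0.746 with Slc7a11.

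Among 14096 other genes, those most like each member by the same measure were not members. For Nqo1 they included Lzts3 (r = 0.982) and Nek6 (0.979), and for Hmox1 they were Trmt2a (0.969), Sbk1 (0.959) and Tmem176b (0.952). For Gclc they were Cavin2 (0.988), Nsg2 (0.986) and Penk (0.982), for Gclm Mtif2 (0.981), Mtrf1 (0.975) and Serinc1 (0.973), and for Slc7a11 Edem3 (0.987), Trove2 (0.984) and Ipo11 (0.969). For Nfe2l2 they were Rwdd4 (0.983), Nptn (0.968) and Col4a3bp (0.963), and for Gsr Top3b (0.978), Sec24d (0.972) and Sik3 (0.972). Txnrd1 was most like Slc35f5, Akirin1 and Kbtbd8 (each 0.962), and Srxn1 most like Pmvk (0.969), Cdhr1 (0.948) and Cdc7 (0.945).

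**Figure D5:**
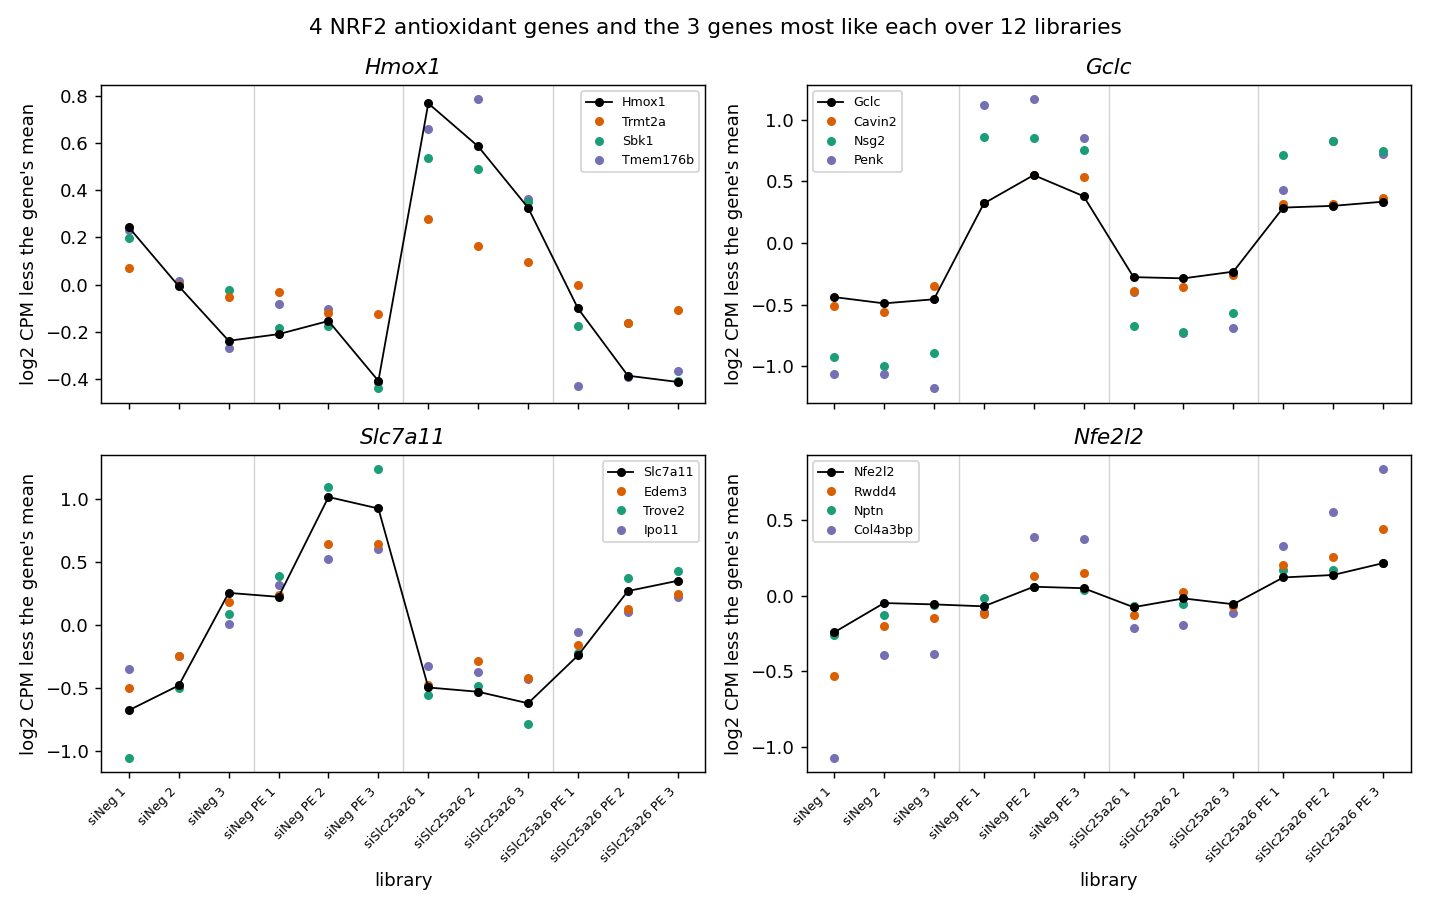
Log2 CPM less each gene's own mean (y axis) over the 12 libraries (x axis) for Hmox1, Gclc, Slc7a11 and Nfe2l2 (black, joined) and the 3 genes most like each (coloured points). The Hmox1 panel is high in the 3 siSlc25a26 libraries without PE, and the Gclc panel steps up in the 6 PE libraries.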

How the data were processed

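The authors deposited expected counts per gene, of which about 21% are not whole numbers, and FPKM values of the same genes; how the expected counts and the FPKM were made is as in the deposited processing notes, which name HISAT, Bowtie2 and Rnor_6.0 without saying what each did. The design had assumed counts, so the expected counts were rounded here. Of 18469 gene identifiers, 16962 (91.8%) and all 9 members matched the RefSeq table of GRCr8, used for names and promoters only; 261 identifiers are not NCBI ones. All 12 libraries of the tables were used.

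Tests used R 4.3.3 with edgeR 4.0.16 (TMM, filterByExpr, quasi-likelihood F-test), each comparison fitted on its own 6 libraries and the difference between PE effects on all 12. Standard errors came from the F statistic. The alternatives changed the tool (DESeq2 1.42.0, or voom of limma 3.58.1), the scaling (size factors of DESeq2; limma on FPKM after adding 1 or 0.1 and taking log2), the filter (none, or at least 10 counts in each library), the model (a block for replicate number, or 1 fit of all 12 libraries), the threshold (no fold change asked) or the libraries (each left out in turn). The promoter spelling TGAGNNNGC was chosen after the data were seen.

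The genes named are all members, regulators called in any comparison with Keap1, Bach1 and Mafg, the label checks, and for each other list and comparison the highest and lowest called gene and the most abundant by mean FPKM. The 3 genes most like each member were taken by Pearson correlation of log2 CPM with a prior count of 2. Further genes are named for a rule given in the text. Not every gene that these rules select is reported here. Members and lists were chosen with earlier results from these data known. The procedure was tested on simulated data. The chi-square between 2 libraries compares their counts with shared proportions and is divided by the number of genes with at least 10 counts in the pair.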

Additional observations from a re-analysis of the deposited data

Results flagged for a closer look

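Of 100 members, regulators, pathway genes and label checks tested, 13 (13.0%, beside 11.2% of all 14097 genes) had a PE effect that differed between the libraries labelled siSlc25a26 and siNeg at an edgeR adjusted p under 0.05, with all 12 libraries in the test. In the libraries labelled siSlc25a26 PE the RNA of Slc25a26 was not lower. Of the members Gclc differed by -0.31 on the log2 scale (adjusted p = 0.0359; not passed with 9 of the 12 libraries left out in turn, up to 0.0865). Slc25a26 itself differed by 1.06 (0.000466) and Acta1 by 1.95 (0.00488), and both passed with any library left out, as did Mgst1 at -0.48 (0.00693), Gsta4 at -0.62 (0.00293) and Abcc3 at -0.55 (0.0131). Gsta4 fell under 1.5-fold without siNeg.PE 2 (-0.57), siSlc25a26.PE 3 (-0.57) or siSlc25a26 2 (-0.55).

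Mafk differed by 0.43 (adjusted p = 0.0479; not passed with 8 of 12 libraries left out in turn, up to 0.113), Sod3 by 0.35 (0.0279; 8 of 12, up to 0.0735), Glrx by -0.74 (0.0308; 7 of 12, up to 0.0797) and Ggt7 by 0.62 (0.0297; 6 of 12, up to 0.0755). Gstm1 differed by -0.49 (0.0280; 6 of 12, up to 0.0668), Sod2 by -0.29 (0.0255; 5 of 12, up to 0.0634) and Gstm7 by -0.92 (0.0250; 4 of 12, up to 0.0672). What lies behind these differences was not tested; macrophage, mural cell and interferon-induced genes in the same test are given above.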

How the results depend on the processing

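Nqo1 with siSlc25a26 without PE and under PE, Hmox1 with PE in siSlc25a26 and Gclc with PE in siNeg kept their calls in all 15 alternatives, and the cause of any change was not tested. Of 720 log2 fold changes of members under alternatives, 667 kept direction and call, 33 gained or lost a call and 20 changed direction. The replicate numbers do not pair the samples by any stated design. Same-numbered libraries deviated together from their groups at correlations of 0.0306 to 0.282 for PE in siNeg, where 5 of 6 libraries were most like their own number, -0.104 to -0.00172 for PE in siSlc25a26 (0 of 6), -0.0746 to 0.0537 without PE (3 of 6) and -0.000785 to 0.226 under PE (4 of 6). With the replicate block the difference between PE effects called Hmox1 lower (-0.60; adjusted p = 0.00330), and no other call of a member changed, although Gclm with PE in siSlc25a26 no longer passed the adjusted p (0.26; 0.0730) and 5 values newly did: with PE in siNeg Nfe2l2 (0.12; 0.0234), Hmox1 (-0.27; 0.00759) and Gsr (-0.14; 0.0433), and under PE Nfe2l2 (0.14; 0.0392) and Txnrd1 (0.17; 0.0436); all calls moved from 2838 to 2969, 2825 to 2710, 2229 to 2151, 2162 to 2195 and, for the difference, 776 to 945.

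Members called higher with PE in siNeg moved from 2 to 1 with limma on log2(FPKM + 1) and on log2(FPKM + 0.1) and without siNeg 2 or siNeg.PE 2, to 3 without siNeg.PE 1 and to 6 with no fold change threshold. Members called higher with PE in siSlc25a26 moved from 1 to 2 with DESeq2, DESeq2 size factors, no filter, and without siSlc25a26.PE 1, siSlc25a26.PE 2 or siSlc25a26 3, to 0 on both FPKM scales and to 7 with no threshold. With siSlc25a26 without PE, members called higher moved from 0 to 1 on log2(FPKM + 0.1) and without siNeg 1 or siSlc25a26 3, and to 2 with no threshold. Under PE, members called lower moved from 2 to 1 with limma-voom, both FPKM scales, all 12 libraries, and without siNeg.PE 2, siNeg.PE 3 or any 1 siSlc25a26.PE library, and members called higher from 0 to 1 with no threshold. For the difference, members called lower moved from 0 to 1 on both FPKM scales, with the replicate block, with no threshold, and without siNeg 1, siSlc25a26.PE 1 or siSlc25a26 3.

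Direction changed as follows, on the log2 scale, with values on log2(FPKM + 1) and log2(FPKM + 0.1) in that order where 2 are given for FPKM. With PE in siSlc25a26, Gclm went from 0.26 to -0.0383 and -0.0405 (FPKM). Gsr went from 0.01 to -0.161 and -0.167 (FPKM), -0.00380 with at least 10 counts in every library and -0.00356 with all 12 libraries, and lay at -0.0124 to 0.0239 with 1 library left out. Between siRNAs without PE, Srxn1 went from -0.05 to 0.00412 and 0.00418 (FPKM) and lay at -0.0942 to 0.00638 with 1 library left out, and Nfe2l2 lay at -0.0249 to 0.0645. Under PE, with 1 library left out, Gclm lay at -0.120 to 0.00291 and Hmox1 at -0.152 to 0.0170. The difference for Nfe2l2 went from 0.08 to -0.0317 and -0.0323 (FPKM), and that for Txnrd1 from 0.03 to -0.0765 and -0.0784 (FPKM), and to -0.0206 to 0.0784 with 1 library left out.

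Slc25a26 under PE went from -0.01 to 0.00440 with limma-voom, 0.00320 with the replicate block and 0.00454 with all 12 libraries, and lay at -0.135 to 0.0837 with 1 library left out. Mafg under PE went from 0.10 to -0.0101 and -0.0108 (FPKM). Bach1 went from 0.08 to -0.0144 and -0.0175 with PE in siNeg and from 0.09 to -0.0518 and -0.0614 with PE in siSlc25a26 (FPKM). Bach1 without PE went from 0.00 to -0.00862 with DESeq2 and -0.00849 with DESeq2 size factors, and lay at -0.0544 to 0.0380 with 1 library left out. Bach1 under PE went from 0.01 to -0.00116 and -0.00107 (FPKM) and -0.00932 with at least 10 counts in every library, and lay at -0.0715 to 0.0881 with 1 library left out.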
